A study of Mus musculus and Mus musculus musculus x Mus musculus castaneus with 52 samples.

Results

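Paternally expressed imprinted genes were followed in mouse pluripotent stem cells that differ in sex, passage and culture. The set was chosen by name: Peg3, Plagl1, Mest, Peg12, Mkrn3, Ndn, Snrpn, Peg10, Impact and Sfmbt2, which lie outside the Igf2 and Dlk1 domains. All 10 were among the 16687 genes of the expression table, and all 10 passed the filter of at least 1 CPM (reads scaled to the library total) on average in every comparison below.

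An imprinted gene is read from only 1 of its parental copies. For these genes that is the copy inherited from the father. At most of them DNA methylation laid down in the egg marks the maternal copy or its control region, whereas Sfmbt2 is known for maternal silencing that starts from a histone mark. The zinc-finger protein ZFP57 with its partner TRIM28 keeps such DNA methylation after fertilisation, and cultured pluripotent cells, female lines in particular, are known for losing imprints. RNA levels such as those here do not show which parental copy was read.

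RNA was sequenced from 24 libraries. Induced pluripotent stem cells (iPSCs, somatic cells reset to pluripotency) of Mus musculus came from 3 female lines (LV20, LV21, LV22) and 3 male lines (LV4, LV8, LV16). Each iPSC line was sampled at passage 7 (P7) and passage 13 (P13), and the study's design text calls the female lines XX early and XO late. Wild-type (WT) embryonic stem cells (ESCs) at passage 5 came from the XX lines CM1 and CM2 and the XY lines CM3 and CM7, all from a musculus by castaneus cross. A separate experiment withdrew the self-renewal factor LIF for 24 h from ESCs grown in serum without feeder cells. It held the WT XX line F121 and the clones labelled Dusp9+/- 1 and 2, all female and musculus by castaneus, and the WT XY line V6.5, which is Mus musculus. Each withdrawal line had 1 column at 0 h and 1 at 24 h. No passage is labelled for these RNA libraries, and the chromatin libraries of V6.5, F121 and the clones are labelled with different passages. The region mutated in the Dusp9+/- clones, heterozygous for an X-linked phosphatase gene that acts on ERK, was not given in the sources used here. Nothing in the labels says that libraries of 1 line came from separate cultures, so each p-value measures the spread between lines or clones.

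Total reads ran from 8309171 to 14245900 per library. Values are log2 CPM, on which 0 reads stand at -2.45. Xist stood at 3.72 or above in LV20 and LV22 at P7 but at 1.66 in LV21 at P7. For an X-linked level, each gene was set against its own median over the 24 libraries. The median of autosomal genes was then subtracted from that of X-linked genes. The value compares libraries of this series and is not an X to autosome ratio. It was 0.38 and 0.58 in LV20 and LV22 at P7 and 0.01 in LV21 at P7, against -0.32 to -0.22 in male iPSC libraries. LV22 at P13 stood at 0, above LV20 and LV21 at P13 (-0.23 and -0.37). LV21 at P7 and LV22 at P13 therefore stand apart from their groups, and results that change when both are left out say so. On the same scale F121 stood at 0.35 at 0 h and 0.33 at 24 h, with Xist at 4.24 and 6.41. CM1 and CM2 stood at 0.55 and 0.57, and the clones labelled Dusp9+/- at 0.6 and 0.56 at 0 h. Xist was at 6.95 or above in each of those libraries. F121, the only WT line set against the clones, thus lay below them in X-linked level. The part of this in those comparisons was not tested. Dusp9 stood at 5.96 and 7.43 in clones 1 and 2 at 0 h and at 6.93 in F121, so clone 1 lay below the WT line and clone 2 above it. At 24 h the clones stood at 7.71 and 6.58 and F121 at 7.84, so both lay below the WT line and their order was reversed. The clone numbers may not match between the times, since the deviations of equal numbers had a correlation of -0.36 and those of crossed numbers 0.36 over genes. Those libraries are called the libraries labelled Dusp9+/- throughout.

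The 10 genes lie on 5 chromosomes of the mouse genome (RefSeq, GRCm38.p6). Snrpn, Ndn, Mkrn3 and Peg12 form a cluster on chromosome 7 that spans 2.48 Mb, and the 3 genes from Ndn to Peg12 fit within 116.2 kb. Peg3 is on the same chromosome at chr7:6703892-6730462. Mest (chr6:30733506-30748466) and Peg10 (chr6:4747306-4760517) share chromosome 6 at a distance. Plagl1 is at chr10:13090832-13131694 and Sfmbt2 at chr2:10370440-10595253. In RefSeq, Hymai overlaps Plagl1, Peg3os overlaps Peg3, Copg2 overlaps Mest, Snhg14 and Snurf overlap Snrpn, and 72 miRNA genes overlap Sfmbt2. The library kit marks strand but the strand setting of the counting was not given, so reads of these overlapping genes cannot be told apart.

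RefSeq promoter windows, from 250 bases before a transcript start to 50 after, were at hand for 8 of the 10 genes, all but Peg10 and Impact, with 14 windows in all. They are shown because the methylated copy of several imprinted genes is marked at CpG-rich sequence near the start, where ZFP57 recognises TGCCGC when its CpG is methylated. TGCCGC or its reverse complement GCGGCA was found in 4 of the 14 windows, those of Plagl1, Mest (2 overlapping windows) and 1 of the 4 Snrpn starts. Among all 32851 windows 11.6% held it, and among the 13432 windows of genes that averaged 1 CPM or more, as the members do, 19.0%. The windows with a match, and that of Peg12 without one, are printed 5′ to 3′ in the direction of transcription, with matches in capitals. They are Plagl1 at chr10:13090582-13090881 (plus strand), Mest at chr6:30737800-30738099 (plus), Snrpn at chr7:60005150-60005449 (minus) and Peg12 at chr7:62464461-62464760 (minus).
Plagl1: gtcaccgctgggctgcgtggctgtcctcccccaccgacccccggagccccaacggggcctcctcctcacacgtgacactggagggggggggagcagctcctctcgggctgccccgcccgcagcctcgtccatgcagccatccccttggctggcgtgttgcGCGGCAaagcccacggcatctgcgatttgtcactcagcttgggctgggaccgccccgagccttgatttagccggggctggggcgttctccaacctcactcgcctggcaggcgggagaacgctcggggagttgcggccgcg
Mest: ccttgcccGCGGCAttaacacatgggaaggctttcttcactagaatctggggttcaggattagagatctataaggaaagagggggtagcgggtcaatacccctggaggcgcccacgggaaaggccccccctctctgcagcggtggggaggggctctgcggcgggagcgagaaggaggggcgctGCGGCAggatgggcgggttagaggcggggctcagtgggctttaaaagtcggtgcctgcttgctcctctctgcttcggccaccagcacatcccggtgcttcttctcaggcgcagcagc
Snrpn: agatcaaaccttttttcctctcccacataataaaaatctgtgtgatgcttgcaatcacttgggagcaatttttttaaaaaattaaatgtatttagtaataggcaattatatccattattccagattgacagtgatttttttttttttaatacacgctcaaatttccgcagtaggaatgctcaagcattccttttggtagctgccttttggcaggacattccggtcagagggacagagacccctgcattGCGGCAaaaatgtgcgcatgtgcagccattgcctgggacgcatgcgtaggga
Peg12: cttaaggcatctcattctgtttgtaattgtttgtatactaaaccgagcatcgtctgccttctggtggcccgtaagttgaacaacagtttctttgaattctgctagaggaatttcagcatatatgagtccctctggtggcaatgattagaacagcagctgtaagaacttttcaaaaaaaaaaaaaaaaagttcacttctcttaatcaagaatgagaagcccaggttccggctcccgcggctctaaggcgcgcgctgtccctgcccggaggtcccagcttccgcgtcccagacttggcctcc

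The Plagl1 window held 26 CpG dinucleotides, the Mest window 17, the Peg12 window 12 and the Snrpn window 7, against a median of 7 in all windows and 20 in those of genes that averaged 1 CPM or more. Of the 4, only the Plagl1 window lay above that second median. A match describes these letters only and shows neither binding nor methylation, which were not measured here. The windows of Peg3, Ndn and Mkrn3, both of Sfmbt2, the upstream Mest start and the other 3 Snrpn starts held no match.

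**Figure D1:**
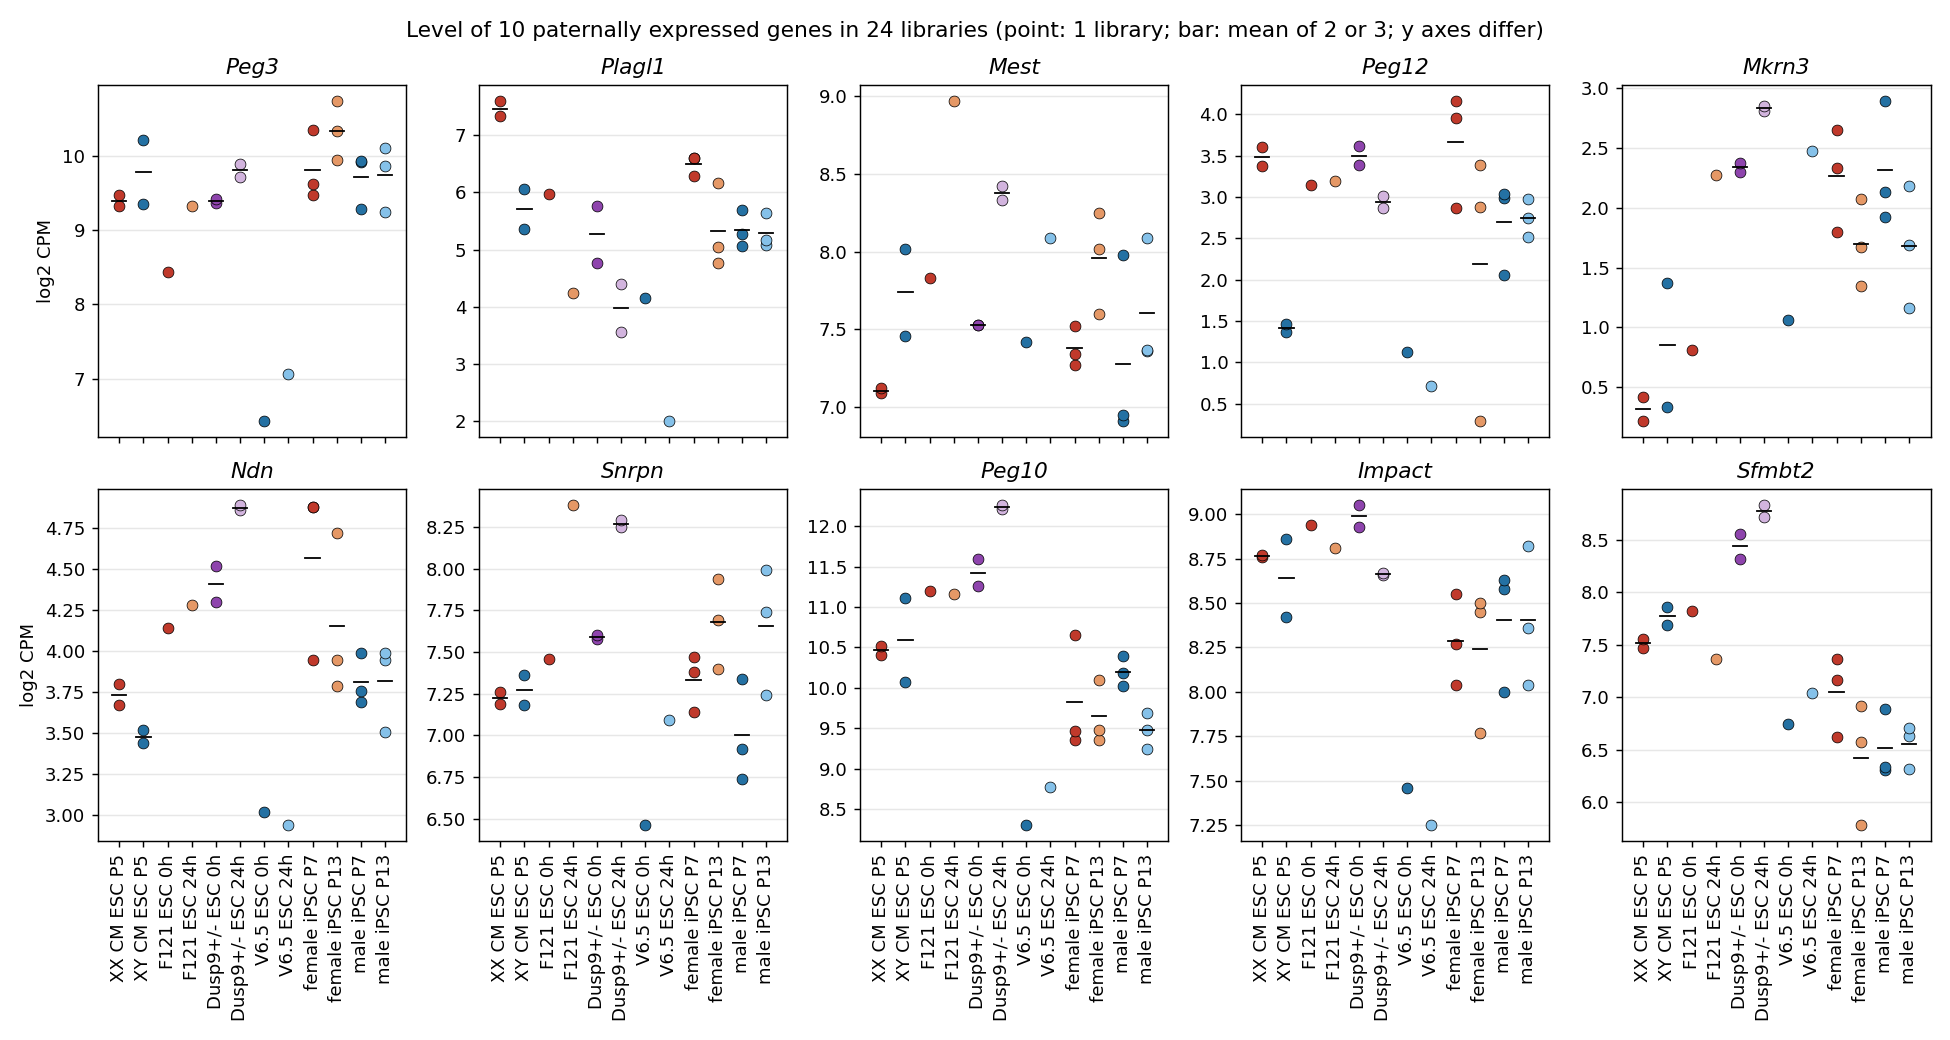
Log2 CPM (y axes, which differ by gene) of the 10 genes in 24 libraries, by group (x axis). Each point is 1 library and each bar the mean of 2 or 3. Both V6.5 libraries lie lowest of all 24 for Peg3, Peg10, Impact and Ndn, and Plagl1 and Peg12 are higher in the XX than in the XY CM lines.

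Levels were compared within each gene and not between genes, since CPM is not corrected for transcript length. Over the 24 libraries the standard deviation (SD) of log2 CPM was 1.21 for Plagl1, 1.03 for Peg10, 1.01 for Peg12 and 0.96 for Peg3. It was 0.82 for Sfmbt2, 0.80 for Mkrn3, 0.56 for Ndn, 0.51 for Mest, and 0.47 for both Snrpn and Impact. Across the 14242 genes that averaged 1 CPM or more the median SD was 0.42, with quartiles of 0.26 and 0.67. Plagl1 ranged from 2.00 in V6.5 at 24 h to 7.60 in CM2, the widest range of the 10 genes. Peg12 and Mkrn3 were the thinly counted genes, with as few as 11 and 10 reads in a library.

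**Figure D2:**
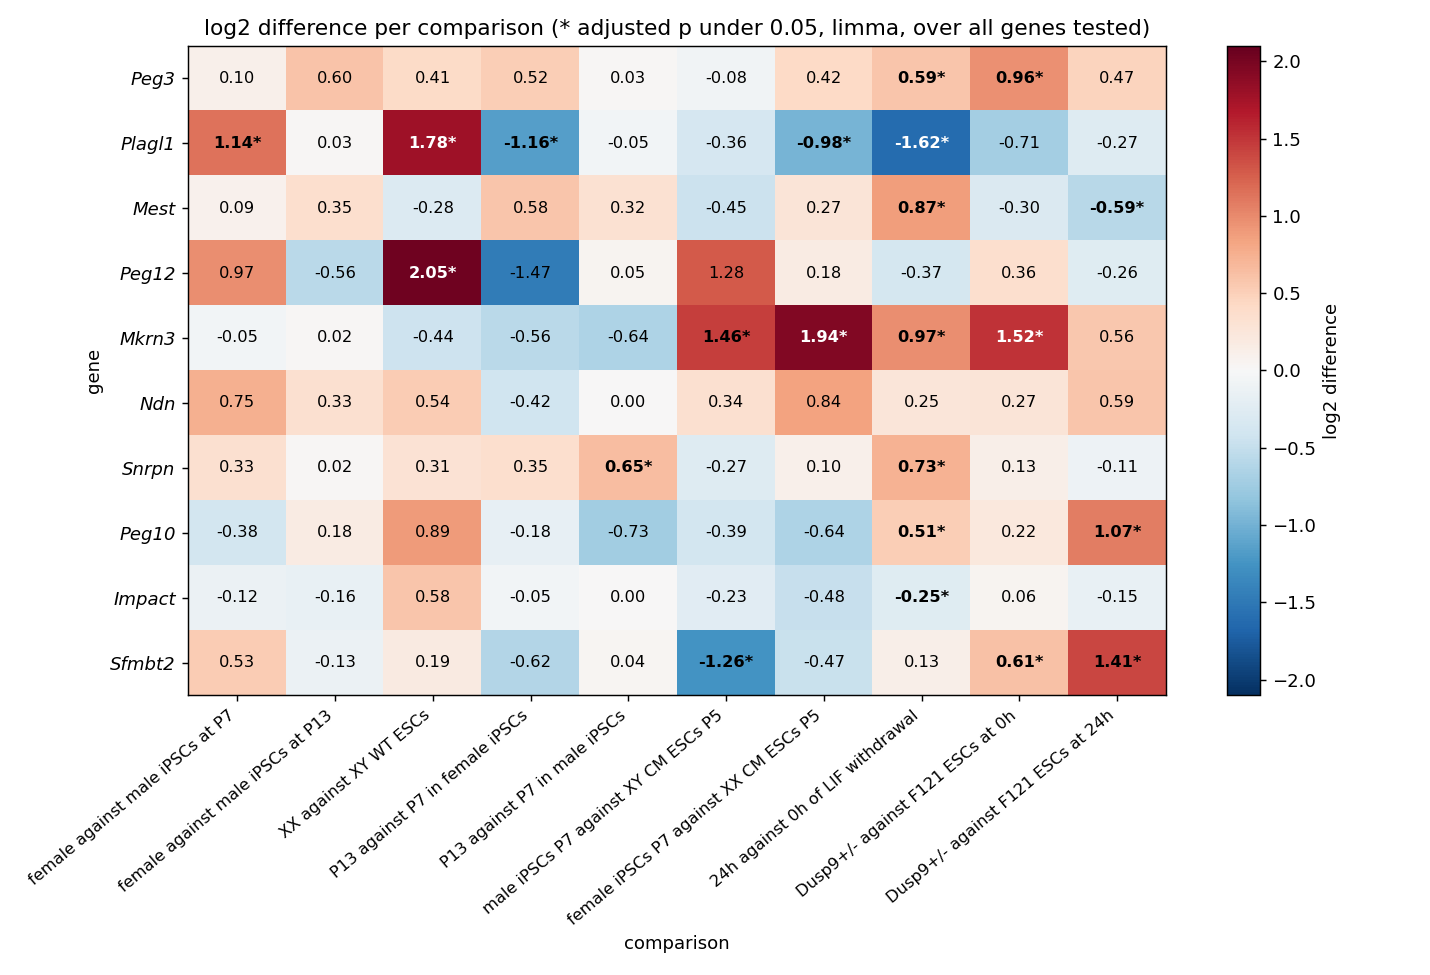
Log2 difference (colour and number) of each gene (rows) in 10 comparisons (columns), from limma. Asterisks mark an adjusted p under 0.05. Plagl1 and Peg12 hold the differences above 1.7 between XX and XY WT ESCs, and withdrawal of LIF marks 7 of 10 genes.

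The question of whether X chromosome number goes with the level of these genes was first put to the WT ESCs. Plagl1, a zinc-finger transcription factor that acts in embryonic growth, and Peg12, a member of the FRAT family that binds the kinase GSK3, were higher in XX than in XY lines. They were 2 of 10 genes called (adjusted p under 0.05), where 7.19% of all 14193 genes tested were called, 4.87% higher and 2.32% lower. None of the 10 was lower.

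Plagl1 stood at 7.33 in CM1 and 7.60 in CM2, at 5.36 in CM3 and 6.06 in CM7, at 5.98 in F121 and at 4.16 in V6.5 at 0 h. Each XX line lay above the XY lines of its own experiment, although F121 lay below CM7. The difference was 3.44-fold, a log2 difference of 1.78 ± 0.18 (SE; adjusted p = 0.00147). Within the CM lines alone, which share a cross and a passage, it was 1.76 ± 0.19 (adjusted p = 0.000327), and F121 exceeded V6.5 by 1.83. Without a term for the experiment the Plagl1 call was lost (1.78, adjusted p = 0.227).

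Peg12 stood at 3.37 and 3.60 in CM1 and CM2, at 1.37 and 1.46 in CM3 and CM7, at 3.14 in F121 and at 1.13 in V6.5 at 0 h. The XX lines all lay above the XY lines, as for Ndn among the 10 genes and for 19.7% of all genes in either direction. The difference was 4.14-fold (2.05 ± 0.25, adjusted p = 0.00333). It was 2.07 ± 0.32 in the CM lines alone (adjusted p = 0.0024), and F121 exceeded V6.5 by 2.01. Peg12 kept its call in all 14 alternatives, with log2 differences from 1.05 to 2.12 and an adjusted p of at most 0.0452. The XY libraries held only 20 to 33 Peg12 reads.

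Mest, which encodes an enzyme-like protein of the alpha/beta hydrolase family, stood at 7.12 and 7.09 in CM1 and CM2 and at 7.46 and 8.02 in CM3 and CM7, so the XX CM lines were the lower ones. F121 at 7.83 and V6.5 at 7.42 had the other order. The pooled difference of -0.28 ± 0.22 did not pass (adjusted p = 0.476), whereas in the CM lines alone Mest was lower in XX (-0.63 ± 0.15, adjusted p = 0.0207), where 12.0% of genes were called. Peg10 (0.89 ± 0.54), Impact (0.58 ± 0.25), Ndn (0.54 ± 0.23) and Peg3 (0.41 ± 0.43) had positive differences that did not pass. F121 and V6.5 differ in strain as well as sex, and perhaps in passage, and these cannot be told apart within that pair. Among pluripotency genes 3 of 8 were higher in XX ESCs and none lower, Nanog (1.00 ± 0.08), Dppa5a (0.60 ± 0.09) and Zfp42 (0.49 ± 0.11), and the list's summed level was 4110 to 4160 CPM in the XX and 2940 to 3490 in the XY CM lines. Their part in the Plagl1 and Peg12 differences was not tested. Among 19 fibroblast genes none was called.

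In iPSCs at P7 the comparison of female with male lines called Plagl1 alone, 1 of 10 genes, where 4.78% of all 13978 genes tested were called, 3.05% higher and 1.72% lower. Plagl1 stood at 6.60 in both LV20 and LV21 and at 6.28 in LV22, while it stood at 5.70 in LV4, 5.27 in LV8 and 5.06 in LV16. The female and male lines did not overlap for Plagl1, and it was the only 1 of the 10 genes so separated, as were 25.8% of all genes. Plagl1 was 2.21-fold higher in female lines (1.14 ± 0.28, adjusted p = 0.0346). That call was lost without LV22 (1.25, adjusted p = 0.111), LV20 (1.09, 0.114), LV16 (1.00, 0.12) or LV8 (1.11, 0.13), the Plagl1 adjusted p ranging from 0.00375 to 0.13 over its 14 alternatives.

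Peg12 at P7 stood at 4.16, 2.87 and 3.95 in LV20, LV21 and LV22 and at 2.05, 3.04 and 2.99 in LV4, LV8 and LV16. LV21 lay among the male lines, and the difference of 0.97 ± 0.61 did not pass (adjusted p = 0.387). Ndn, a MAGE family protein active in neurons, stood at 4.88, 3.95 and 4.88 in the female lines and at 3.69, 3.76 and 3.99 in the male lines. Again LV21 lay among the male lines, and the Ndn difference of 0.75 ± 0.28 did not pass (adjusted p = 0.133).

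With LV21 at P7 and LV22 at P13 left out, 3 of the 10 genes were called between female and male P7 lines, where 13.0% of genes were called. They were Plagl1 (1.09 ± 0.21, adjusted p = 0.00375), Ndn (1.06 ± 0.20, adjusted p = 0.00389) and Peg10 (-0.79 ± 0.18, adjusted p = 0.0106). Peg10, a gene derived from a retrotransposon and needed for the placenta, stood at 9.47 in LV20 and 9.35 in LV22, below the 10.02 to 10.40 of the male lines, and at 10.66 in LV21. LV21 at P7 thus held the high Peg10 and low Ndn values of its group. The size of the sex difference was also compared between iPSCs at P7 and CM ESCs, and none of the 10 genes passed limma's test of that interaction (0.0142% of genes called, 0.00709% in each direction), nor at an unadjusted p under 0.05. The Plagl1 difference was -0.61 ± 0.45 from ESCs to iPSCs (adjusted p = 0.671) and that of Peg12 -1.10 ± 0.91 (adjusted p = 0.713).

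At P13, when the female lines are labelled XO, none of the 10 genes was called between female and male lines by limma, and 0.0286% of all genes were. Peg3 had the smallest p of the 10 (0.60 ± 0.26, adjusted p = 0.999), and voom on the recovered reads also called none. Plagl1 stood at 5.05, 4.77 and 6.16 in LV20, LV21 and LV22 and at 5.64, 5.17 and 5.08 in LV4, LV8 and LV16. The groups overlapped for Plagl1, whose difference was 0.03 with a 95% interval from -0.57 to 0.64. None of the 10 genes was separated between the sexes at P13, against 7.24% of all genes.

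Passage was then compared between the P7 and P13 libraries of each sex, first as unpaired groups and then with the line as a block. From P7 to P13 Plagl1 fell in female iPSCs. Its change was -1.54 for LV20, -1.82 for LV21 and -0.12 for LV22, the line with the highest X-linked level of the female lines at P13. The mean Plagl1 change was -1.16 ± 0.28 (adjusted p = 0.0241), and Plagl1 was the 1 gene of the 10 called, where 9.00% of genes were called, 4.32% higher and 4.68% lower. With the line as a block, 5 of the 10 genes passed, where 11.1% of genes did. Plagl1 (adjusted p = 0.0192), Peg12 (-1.47 ± 0.39, adjusted p = 0.0372) and Sfmbt2 (-0.62 ± 0.18, adjusted p = 0.0481) were lower at P13, and Peg3 (0.52 ± 0.10, adjusted p = 0.0121) and Mest (0.58 ± 0.14, adjusted p = 0.0283) higher.

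Peg12 went from 4.16 to 3.39 in LV20, from 2.87 to 0.29 in LV21 and from 3.95 to 2.88 in LV22. All 3 lines moved down, and LV21 at P13, with 11 reads, was the lowest of the 24 libraries. Sfmbt2, a Polycomb-group protein needed in the trophoblast, went from 7.16 to 6.92, from 6.62 to 5.78 and from 7.36 to 6.57 in LV20, LV21 and LV22. LV21 at P13 was again the lowest of all libraries for Sfmbt2.

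Peg3, a zinc-finger protein with roles in growth and maternal behaviour, went from 9.47 to 10.33 in LV20, from 10.35 to 10.74 in LV21 and from 9.62 to 9.94 in LV22. Mest went from 7.27 to 8.02, from 7.52 to 7.60 and from 7.34 to 8.25 in the same lines. For Mest and Plagl1 the female P7 and P13 groups did not overlap, as for 27.1% of all genes. Without the block the Plagl1 call depended on single libraries. It ended on omitting the P7 library of LV22 (-1.27, adjusted p = 0.0523) or LV20 (-1.11, 0.0915), or the P13 library of LV20 (-1.03, 0.0949) or LV21 (-0.88, 0.0679). It was also lost with the spread of the female lines alone (adjusted p = 0.0705).

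In male iPSCs Plagl1 changed by -0.06, -0.10 and 0.01 in LV4, LV8 and LV16, a mean of -0.05 with a 95% interval from -0.66 to 0.55. The gene called was Snrpn, which encodes a spliceosome protein expressed in brain, 1 of 10 where 13.0% of genes were called, 7.23% higher and 5.82% lower. Snrpn went from 6.92 to 7.24 in LV4, from 6.74 to 7.74 in LV8 and from 7.34 to 7.99 in LV16, up in 3 of 3 lines though the groups overlapped. The Snrpn change was 0.65 ± 0.19 (adjusted p = 0.0373). It was lost without LV4 at P7 (0.61, adjusted p = 0.092), LV8 at P13 (0.61, 0.114), LV8 at P7 (0.52, 0.169) or LV16 at P13 (0.49, 0.108), and with voom (0.65, 0.0513).

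Peg10 went from 10.40 to 9.48 in LV4, from 10.02 to 9.25 in LV8 and from 10.18 to 9.69 in LV16. All male P13 libraries lay below all male P7 libraries for Peg10, as for 36.3% of all genes in either direction. The Peg10 change was -0.73 ± 0.27 (adjusted p = 0.09), and with the line as a block it passed (-0.73 ± 0.12, adjusted p = 0.00519), making 2 of 10 genes called where 15.0% of genes were. Mkrn3, a RING-finger gene, was lower at P13 in 3 of 3 male and 3 of 3 female lines, by 0.45 to 0.76, without passing in either (adjusted p = 0.279 and 0.364).

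**Figure D3:**
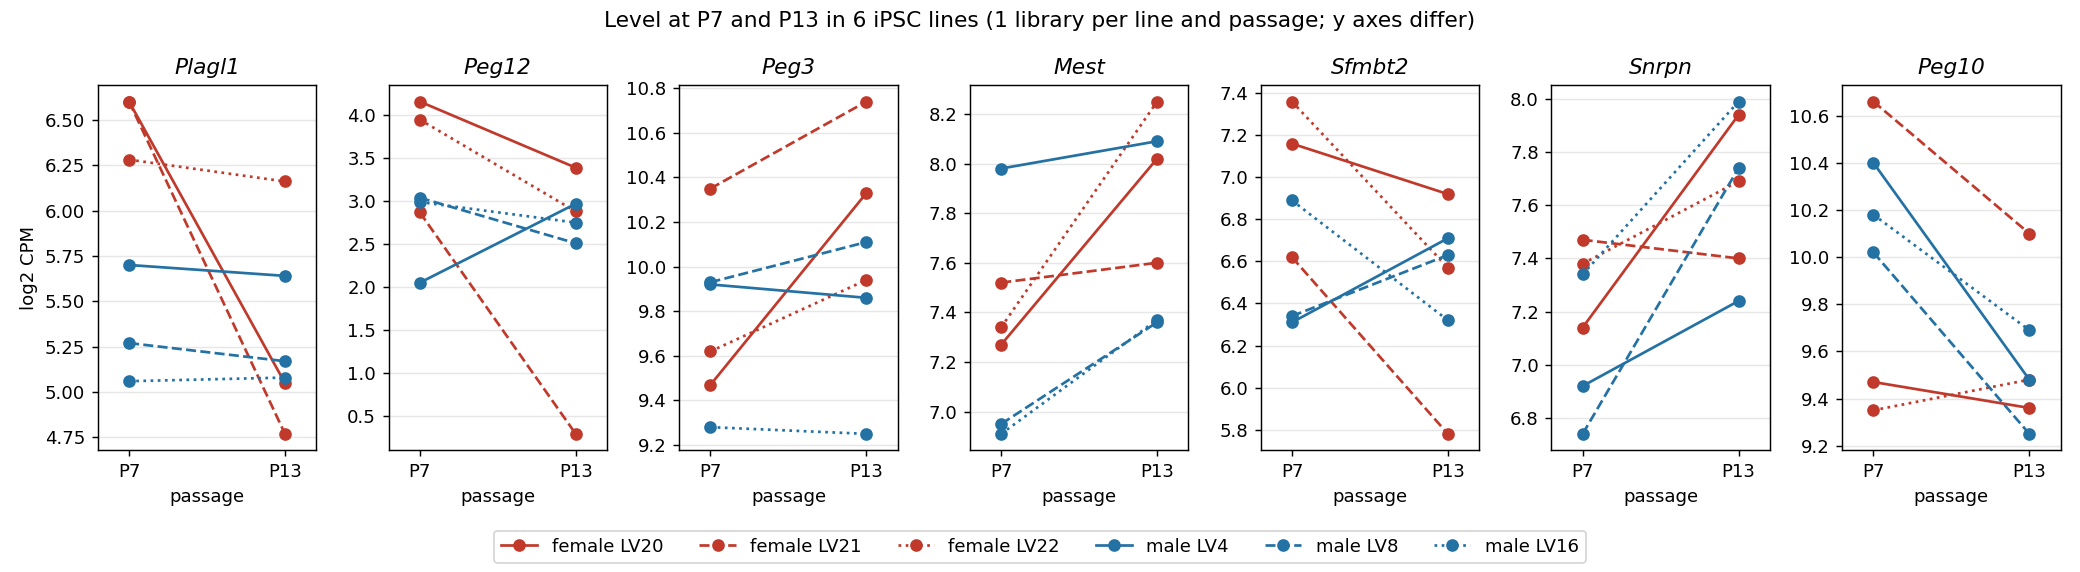
Log2 CPM (y axes, which differ) of 7 genes at P7 and P13 (x axis) in the 3 female (red) and 3 male (blue) iPSC lines, 1 library per point. Plagl1 changed by -1.54 for LV20, -1.82 for LV21 and -0.12 for LV22, while the male lines stayed between 5.06 and 5.70.

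No gene of the table passed limma's unpaired test of a difference between the female and male passage changes (0% called). With the line as a block 11 genes did (0.0787%), none of them among the 10. In the unpaired test Plagl1 had the smallest p of the 10 (-1.11 ± 0.40, adjusted p = 0.48). With LV21 at P7 and LV22 at P13 omitted that difference passed for Plagl1 (-1.48 ± 0.29, adjusted p = 0.0202) and Peg10 (1.05 ± 0.25, adjusted p = 0.0427), where 2.61% of genes did. The same omission called Peg3 (0.99 ± 0.25), Plagl1 (-1.53 ± 0.23) and Ndn (-1.01 ± 0.22) in the female change, with 11.7% of genes called, and added Peg10 (adjusted p = 0.00872) in the male change, with 17.3% called. Fibroblast and feeder markers moved with passage: 8 of 19 tested were higher at P13 in female and 13 of 19 in male lines, and none lower. Of the other lists, primitive endoderm had 1 of 10 higher in female and 4 of 10 in male lines, and neural genes 2 of 7 higher in each and 1 lower in female lines. Trophoblast genes had 2 of 8 lower in male lines, Krt18 (-1.49 ± 0.39) and Krt7 (-1.36 ± 0.40), and none called in female lines. Pluripotency genes had 1 of 8 lower in female and 2 of 8 higher in male lines. The summed fibroblast level was 2370 to 3000 CPM in female P7, 2710 to 4190 in female P13, 2870 to 3150 in male P7 and 3530 to 5330 in male P13 libraries. Their part in these changes was not tested, and in such bulk samples fewer cells of a type and less RNA per cell cannot be told apart.

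Withdrawal of LIF, which starts exit from self-renewal, moved most of these genes within 24 h. Of the 10 genes 5 rose and 2 fell, 7 in all, where 32.7% of 14335 genes were called, 16.8% higher and 15.9% lower. Mest, Snrpn, Mkrn3, Peg3 and Peg10 rose, and Plagl1 and Impact fell. The fit took 1 common change over the 4 lines after removing the genotype, with 8 libraries.

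Plagl1 went from 5.98 to 4.24 in F121, from 4.16 to 2.00 in V6.5, from 4.77 to 4.39 in clone 1 and from 5.77 to 3.56 in clone 2 labelled Dusp9+/-. It was lower at 24 h in 4 of 4 lines. Steps of the single clones here and below assume that the clone numbers match between the times, while the fitted change does not. The Plagl1 fall was 3.08-fold (-1.62 ± 0.28, adjusted p = 0.00489). V6.5 at 24 h, with 42 reads, was the lowest Plagl1 value of the 24 libraries.

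Mest went from 7.83 to 8.97 in F121, from 7.42 to 8.09 in V6.5 and from 7.53 in each clone to 8.42 and 8.33. Every 24 h library lay above every 0 h library for Mest, as the only 1 of the 10 genes so separated against 16.6% of all genes. Mest rose 1.83-fold (0.87 ± 0.08, adjusted p = 0.000645). Snrpn went from 7.46 to 8.38 in F121, from 6.46 to 7.09 in V6.5, from 7.60 to 8.25 in clone 1 and from 7.58 to 8.29 in clone 2. It was higher in 4 of 4 lines, by 0.64 to 0.92, a mean rise of 1.66-fold (0.73 ± 0.07, adjusted p = 0.000639).

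Mkrn3 went from 0.81 to 2.27 in F121, from 1.06 to 2.47 in V6.5, from 2.30 to 2.81 in clone 1 and from 2.37 to 2.85 in clone 2. The steps of F121 and V6.5 were the larger ones, and the mean Mkrn3 rise was 1.95-fold (0.97 ± 0.22, adjusted p = 0.0133). It was lost without F121 at 24 h (0.80, adjusted p = 0.0525). Peg3 went from 8.44 to 9.33 in F121, from 6.43 to 7.06 in V6.5, from 9.42 to 9.89 in clone 1 and from 9.36 to 9.72 in clone 2. The Peg3 rise of 0.59 ± 0.09 (adjusted p = 0.00368) was seen in 4 of 4 lines and kept its call in all 17 alternatives, as did Plagl1, Mest and Snrpn.

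Peg10 stood at 11.20 and 11.16 in F121 at 0 h and 24 h, at 8.30 and 8.77 in V6.5, at 11.26 and 12.26 in clone 1 and at 11.59 and 12.21 in clone 2. It was higher at 24 h in 3 of 4 lines and level in F121 (-0.04). The Peg10 rise was 0.51 ± 0.15 (adjusted p = 0.0313), and it did not pass with the line as a block (adjusted p = 0.0525), without V6.5 at both times (0.53, adjusted p = 0.0741), or without any single library of V6.5 or of a clone (adjusted p = 0.0551 to 0.0898). Impact, on chromosome 18, encodes an inhibitor of the stress kinase GCN2. It stood at 8.94 and 8.81 in F121, at 7.46 and 7.25 in V6.5, at 8.93 and 8.66 in clone 1 and at 9.05 and 8.67 in clone 2. It was lower at 24 h in 4 of 4 lines, by 0.12 to 0.39, with a mean of -0.25 ± 0.06 (adjusted p = 0.0216). The Impact call was lost without clone 1 at 24 h (-0.23, adjusted p = 0.0697), clone 2 at 24 h (-0.23, 0.0717), or V6.5 at both times (-0.26, 0.0505).

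Peg12 (-0.37 ± 0.16, adjusted p = 0.112), Ndn (0.25 ± 0.13, adjusted p = 0.174) and Sfmbt2 (0.13 ± 0.14, adjusted p = 0.52) did not pass. Peg12 was lower at 24 h in 3 of 4 lines, Ndn higher in 3 of 4 and Sfmbt2 higher in 3 of 4, with F121 the exception for Peg12 and Sfmbt2 and V6.5 for Ndn. Over the same 24 h 11 of 18 fibroblast markers tested fell and none rose, and 4 of 8 pluripotency genes fell while Utf1 rose (0.85 ± 0.20). Of the other lists, 3 of 7 neural genes rose and 1 fell, 3 of 9 primitive endoderm genes fell and none rose, and 1 of 8 trophoblast genes rose and 1 fell. Their part in the changes of the imprinted genes was not tested.

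**Figure D4:**
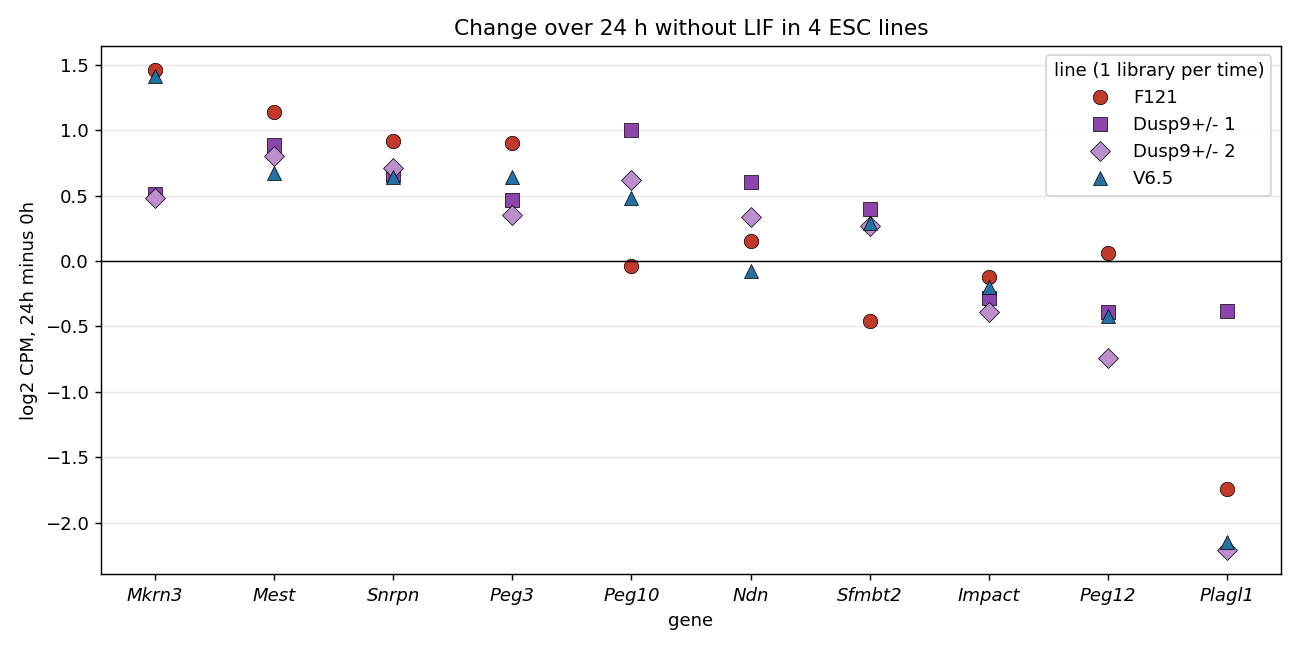
Change in log2 CPM from 0 h to 24 h without LIF (y axis) of each gene (x axis) in F121, V6.5 and the clones labelled Dusp9+/- 1 and 2, with 1 library per line and time. Mkrn3, Mest, Snrpn and Peg3 lie above 0 in 4 of 4 lines, and Impact and Plagl1 below 0.

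The libraries labelled Dusp9+/- were compared with F121 at each time. At 0 h Mkrn3, Peg3 and Sfmbt2 were higher, 3 of 10 genes where 8.91% of 14335 genes were called, 4.81% higher and 4.10% lower. Mkrn3 stood at 2.30 and 2.37 in the clones and at 0.81 in F121, a difference of 1.52 ± 0.24 (adjusted p = 0.0265). Peg3 stood at 9.42 and 9.36 against 8.44 (0.96 ± 0.11, adjusted p = 0.0173), and Sfmbt2 at 8.32 and 8.56 against 7.82 (0.61 ± 0.13, adjusted p = 0.0427). Both clones lay above F121 for these 3 genes, but with 1 library of F121 80.9% of all genes were separated in either direction, and 84.3% at 24 h.

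At 24 h Sfmbt2 and Peg10 were higher and Mest lower, 3 of 10 genes where 2.55% of genes were called, 1.57% higher and 0.984% lower. Sfmbt2 stood at 8.72 and 8.83 in the clones and at 7.36 in F121 (1.41 ± 0.13, adjusted p = 0.0351). Peg10 stood at 12.26 and 12.21 against 11.16 (1.07 ± 0.15, adjusted p = 0.0377), and Mest at 8.42 and 8.33 against 8.97 (-0.59 ± 0.09, adjusted p = 0.0449). The Mest call was lost in 6 of 9 alternatives and that of Peg10 in 5 of 9, among them leaving out either clone's 24 h library. Leaving out clone 2 at 24 h also ended the Sfmbt2 call (1.36, adjusted p = 0.0955).

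These fits have 2 residual degrees of freedom, both from the clones, and F121 with 1 library per time is assumed to vary like them. With the spread taken from a fit that also held the CM lines, Mkrn3 at the start (adjusted p = 0.0594) did not pass. Nor did Mest (adjusted p = 0.0903) or Peg10 (adjusted p = 0.0855) after withdrawal. A test of whether the 24 h change differed between the clones and F121, added after these values were seen, called no gene of the table by limma (0% called). The smallest p-values of the 10 were those of Sfmbt2 (0.80 ± 0.18, adjusted p = 0.234) and Peg10 (0.85 ± 0.21, adjusted p = 0.246). Peg3 (-0.49 ± 0.15, adjusted p = 0.316) and Mkrn3 (-0.96 ± 0.34, adjusted p = 0.362) came next, and none passed. Other cell type markers differed between the same libraries. Summed over 10 trophoblast genes, the libraries labelled Dusp9+/- held 305 to 524 CPM and F121 101 at 0 h and 73.5 at 24 h, with 4 of 8 tested called higher at 0 h and 6 of 8 at 24 h. Summed over 20 fibroblast genes, they held 1490 to 1990 CPM at 0 h against 3690 in F121, with 9 of 18 tested called lower. Trophoblast sums were also 95.2 and 43.1 CPM in V6.5, 271 to 284 in XX CM lines and 200 to 674 in XY CM lines. In iPSCs they were 275 to 396 (female P7), 318 to 362 (male P7), 166 to 234 (female P13) and 152 to 248 (male P13). The clones thus exceeded F121 and V6.5 but not CM7, and such sums do not show which cells were present. Sfmbt2 and Peg10 are themselves expressed in trophoblast, and the part of these markers in the result was not tested.

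iPSCs at P7 were set against the CM ESCs of the same sex, which differ from them in strain and passage as well as in cell type. Mkrn3 was higher in iPSCs of both sexes. It stood at 1.92, 2.89 and 2.13 in LV4, LV8 and LV16 against 1.37 and 0.34 in CM3 and CM7, and at 2.65, 1.80 and 2.33 in LV20, LV21 and LV22 against 0.22 and 0.42 in CM1 and CM2. The Mkrn3 groups did not overlap in either sex, as for 55.5% of all genes in males and 51.7% in females. The Mkrn3 differences were 1.46 ± 0.44 (adjusted p = 0.0216) in males and 1.94 ± 0.44 (adjusted p = 0.00466) in females.

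In males Sfmbt2 was lower in iPSCs, at 6.31, 6.34 and 6.89 against 7.69 and 7.86 (-1.26 ± 0.27, adjusted p = 0.00246), so that 1 of 10 genes was higher and 1 lower where 26.3% of 14114 genes were called, 13.3% higher and 13.0% lower. In females Plagl1 was lower in iPSCs, at 6.60, 6.60 and 6.28 against 7.33 and 7.60 (-0.98 ± 0.32, adjusted p = 0.0357), again 1 higher and 1 lower, where 21.3% were called, 11.3% higher and 9.96% lower. These counts of members are near the share of all genes. The male Mkrn3 call was lost without CM7 (0.94, adjusted p = 0.246) or LV8 (1.17, 0.0932). In females, leaving out CM1 ended the calls of Mkrn3 (1.84, adjusted p = 0.052) and Plagl1 (-1.11, 0.101), and that of Plagl1 was also lost without CM2 (-0.84, 0.226), LV22 (-0.87, 0.0926) or LV20 (-1.03, 0.0591). With LV21 at P7 and LV22 at P13 omitted, Ndn (1.14 ± 0.21, adjusted p = 0.00128) and Peg10 (-1.06 ± 0.26, adjusted p = 0.00823) were called as well, 4 of 10 where 21.2% of genes were. Fibroblast markers were lower in iPSCs, with 10 of 19 called in males and 5 of 19 in females, and their part was not tested.

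V6.5 stood apart from the other lines in the level of these genes. At 0 h it was the lowest of the 4 withdrawal libraries for 9 of 10 genes, all but Mkrn3, while it was lowest for 32.5% of the same 14242 genes. For Peg3, Plagl1, Ndn, Snrpn, Peg10 and Impact, 6 of 10 genes, it lay below all other 19 undifferentiated libraries, as did 6.28% of all genes. F121 exceeded V6.5 at 0 h by 2.91 for Peg10, 2.01 for Peg3, 1.48 for Impact, 1.12 for Ndn and 1.00 for Snrpn. The median excess over the 10 genes was 1.30, against -0.01 over all genes. At 24 h V6.5 was again lowest of 4 for the same 9 genes, against 33.8% of all genes. V6.5 is 1 library per time, so these values carry no test. The line differs from the others of its experiment in sex and strain, and perhaps in passage, and those differences cannot be told apart.

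The 10 genes did not follow a common course over the 24 libraries. The median Pearson correlation over their 45 pairs was 0.329, from -0.511 to 0.713, the last between Peg10 and Sfmbt2, and 9 pairs exceeded 0.5. Without V6.5 the median was 0.134 and 5 pairs exceeded 0.5. These are descriptions over libraries that share lines and experiments. Of these 14242 genes, those most like Peg3 were Usp29 (0.886), Prag1 (0.84) and Eno1b (0.823). Without V6.5 these were 0.765, 0.535 and 0.441, so the likeness of Prag1 and Eno1b to Peg3 rested largely on V6.5. Usp29 is an imprinted gene that lies 97 bases from Peg3. Most like Snrpn were Gm38393 (0.937), the overlapping transcript Snhg14 (0.898) and Msx1 (0.802).

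Most like Plagl1 were Epb41l4b (0.942), the X-linked Hmgb3 (0.92) and 2300002M23Rik (0.89). Most like Peg12 were Snap91 (0.891) and the X-linked Xlr3a (0.865) and Pnma5 (0.845). For Sfmbt2 they were the X-linked G6pdx (0.917), Syt7 (0.913) and Ulbp1 (0.903), and for Peg10 Arap2 (0.903), Grip1 (0.88) and Plxna1 (0.874). Most like Ndn were Magee1 (0.861), Urgcp (0.844) and Iqsec2 (0.837), of which Magee1 and Iqsec2 are X-linked. Most like Mkrn3 was Map9 (0.858), most like Impact Naaa (0.85) and most like Mest Bin1 (0.821), each with no neighbour of the gene among the next 2. Without V6.5 the likeness of Naaa to Impact was 0.715, and the other correlations named for Snrpn, Plagl1, Peg12, Sfmbt2, Peg10, Ndn, Mkrn3 and Mest stayed at 0.753 or above.

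Other imprinted genes and the genes that keep imprints were counted beside them. Between XX and XY WT ESCs 3 of 15 other paternally expressed genes tested were higher and none lower, Kcnq1ot1 (0.95 ± 0.14), Dio3 (1.85 ± 0.31) and Zrsr1 (0.78 ± 0.13). The shares over all genes were 4.87% higher and 2.32% lower. Of 23 maternally expressed genes 1 was higher, H19 (1.12 ± 0.24), and 4 lower, among them Phlda2 (-2.01 ± 0.25), Grb10 (-1.42 ± 0.23) and Cdkn1c (-1.08 ± 0.24). Both de novo methyltransferase genes, Dnmt3a (-0.73 ± 0.13) and Dnmt3b (-1.19 ± 0.18), were lower in XX ESCs.

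In iPSCs at P7, 1 of 16 other paternally expressed genes was called between the sexes, Igf2, which was lower in female lines (-1.28 ± 0.26). Over all genes 3.05% were called higher and 1.72% lower. Zfp57 was higher (0.55 ± 0.12) and Uhrf1, the partner of the maintenance methyltransferase, lower (-0.30 ± 0.08) in female lines. At P13, Trim28 was higher than at P7 in female (0.47 ± 0.08) and male (0.44 ± 0.08) lines, and Dnmt3l (1.03 ± 0.22) and Dnmt3a (0.83 ± 0.20) were higher and Tet3 (-0.90 ± 0.17) lower in female lines. Ezh2 (-0.34 ± 0.08) was lower in male lines. Of the 18 genes of the imprint-keeping list 3 were higher and 1 lower in female and 4 higher and 1 lower in male lines. Over all genes 4.32% were higher and 4.68% lower in female lines, and 7.23% and 5.82% in male lines. On withdrawal of LIF 3 of 16 other paternally expressed genes rose and 1 fell, where 16.8% of all genes rose and 15.9% fell. Magel2 (2.19 ± 0.27), which lies between Ndn and Mkrn3 in the mouse cluster, and Snhg14 (0.65 ± 0.10) rose with Mkrn3 and Snrpn. Of 23 maternally expressed genes 8 rose and 4 fell. Of the imprint-keeping list 6 of 18 rose and 2 fell, and Dnmt3b (1.57 ± 0.12), Dnmt3l (0.94 ± 0.12) and Zfp445 (0.55 ± 0.06), which encodes another imprint-protecting zinc finger, rose, while Tet2 fell (-0.89 ± 0.13).

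H19 was higher in the libraries labelled Dusp9+/- than in F121 before withdrawal (2.59 ± 0.19, adjusted p = 0.0127) and after it (3.39 ± 0.19, adjusted p = 0.0244). It was the 1 of 23 maternally expressed genes called at each time. Igf2 was higher after withdrawal (2.49 ± 0.38), the 1 of 16 other paternally expressed genes called then. Over all genes 4.81% were higher and 4.10% lower at 0 h, and 1.57% and 0.984% at 24 h. Sgce, the paternally expressed neighbour of Peg10, was higher at 0 h (0.94 ± 0.17, adjusted p = 0.0343), when the Peg10 difference was 0.22 ± 0.15 and did not pass. Of the 18 genes of the imprint-keeping list 4 were lower and 1 higher in the libraries labelled Dusp9+/- at 0 h. Trim28 (-0.64 ± 0.09), Tet2 (-1.14 ± 0.09) and Eed (-0.57 ± 0.09) were among the lower, and Dnmt3b (0.72 ± 0.09) was higher. Between male iPSCs and XY CM ESCs 7 of 18 genes of the imprint-keeping list were lower and none higher, led by Uhrf1 (-0.53 ± 0.08), Eed (-0.66 ± 0.10) and Trim28 (-0.59 ± 0.09). Over all genes 13.0% were lower and 13.3% higher. In females 5 of 18 were lower and 1 higher, with Uhrf1 (-0.97 ± 0.08) and Trim28 (-0.53 ± 0.09) among the lower, where 9.96% of all genes were lower and 11.3% higher.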

How the data were processed

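The RNA was prepared with a strand-marking mRNA kit and sequenced from 1 end, per the labels' protocols. STAR 2.5.3a, featureCounts, edgeR and the builds GRCm38 and mm10 are named in the submitters' processing notes. The authors deposited 1 table of 16687 genes and 24 libraries, whose other values, written with decimal commas, are log2 CPM with an offset that puts 0 reads at 1 shared value. Whole reads were recovered from the CPM steps: for 100% of values the result was whole to within 0.01 read. The library size implied by these steps was not the plain total of reads. It was 1.244e+07 against 11788687 reads in clone 2 at 0 h and 9.978e+06 against 10241419 in V6.5 at 0 h. The 8 technical repeats have no column of their own, and whether they were merged is not stated. The 20 chromatin libraries were not analysed here.

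Tests were limma 3.58.1 in R 4.3.3 (lmFit and eBayes with trend, two-sided, Benjamini-Hochberg over all genes that averaged 1 CPM or more in the libraries fitted; called at adjusted p under 0.05), run after a check on simulated data. The iPSC fits held 12 libraries, the WT ESC fit 6 with experiment as a term, the withdrawal fits 8 and the iPSC against ESC fits 16. An edgeR or other count model was not run; voom on the recovered reads was an alternative. The P7 and P13 libraries of an iPSC line are the same cell line by their labels, so the line pairs them; the correlation of their deviations ran from -0.04 to 0.11. Promoters are from RefSeq (GRCm38.p6). Named genes are the 10 members, up to 4 called genes per list with the smallest adjusted p, and the 3 genes most correlated with each member. The members and lists were chosen with earlier results of these data known.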

Additional observations from a re-analysis of the deposited data

How the results depend on the processing

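Over the single-gene values of the 13 comparisons, 1705 alternative values kept their side of the threshold, 28 passed where the reported fit did not, and 53 lost the call. Most of the 1705 were values that neither fit called. The 53 are therefore to be set against the alternatives of called values alone. For single calls the number kept ran from 3 of 9, for Mest in the libraries labelled Dusp9+/- at 24 h, to all, as for Peg12 between XX and XY ESCs. None reversed direction where either fit called the gene. A change of sign where neither fit called it was counted as kept. The number of the 10 genes called was stable for female against male iPSCs at P13 and for the tests of a difference between sex or line effects, except where named. With no filter on low values it was 0 for the sexes at P7, for female passage, for male passage and for Dusp9+/- against F121 at 24 h (reported 1, 1, 1 and 3). It was 1 for Dusp9+/- at 0 h (3). Calls among all genes fell as well, to 440, 953, 1475 and 0 (reported 668, 1258, 1823 and 366) and to 200 (1277). Leaving out LV21 at P7 and LV22 at P13 gave 3 for the sexes at P7, 3 for female passage, 2 for male passage, 2 for the difference of passage changes (0) and 4 for female iPSCs against XX CM ESCs (2). With the spread of the compared libraries alone female passage gave 0 and male passage 2, and with the line as a replicate block they gave 5 and 2. Among all genes the compared libraries alone called 436 for female and 2329 for male passage, and the block 1551 and 2096. Voom gave 0 for male passage and 1 for Dusp9+/- at 24 h, and a fit with the CM lines also 1. Among all genes voom called 1427 for male passage and 16 for Dusp9+/- at 24 h, and the fit with the CM lines 723. Without the experiment term XX against XY gave 1 (2), and a mean of at least 4 CPM gave 1 for male iPSCs against XY CM ESCs (2), where Mkrn3 fell below the filter. Leaving out 1 replicate at a time gave 0 to 3 for the sexes at P7, 0 to 3 for female and 0 to 1 for male passage, 2 to 3 for XX against XY, 3 for Dusp9+/- at 0 h and 0 to 1 at 24 h, 5 to 8 for withdrawal, 1 to 3 for male and 0 to 4 for female iPSCs against CM ESCs. LV21 at P7 alone gave the highest count of the sexes at P7, of female passage and of female iPSCs against CM ESCs when left out. Calls among all genes moved over the same omissions. They ran from 44 to 1727 for the sexes at P7, from 174 to 2079 for female passage and from 429 to 2198 for male passage. For withdrawal they ran from 3086 to 4158 (reported 4688). The changes are therefore not particular to the 10 genes. The block on withdrawal lines gave 6 of the 7 genes. The clones' deviations ran against their numbers (r = -0.36), and with the numbers crossed at 24 h, an alternative added after seeing the data, 7 were called. Also added then were the fits with the CM lines and without V6.5. The cause of these changes was not tested.

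No columns hold separate cultures of 1 line, F121 and V6.5 have 1 library per time, and Peg12 and Mkrn3 have as few as 11 and 10 reads in a library, so their small differences are limited by counting error.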

Other observations

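The low level of V6.5 was also seen in other paternally expressed genes, some of which lie beside genes of the set. At 0 h it was the lowest of the 4 withdrawal libraries for 11 of the 16 tested, against 32.5% of all genes, among them Sgce (2.46 against 4.18 in F121 and 5.16 and 5.08 in the libraries labelled Dusp9+/- 1 and 2), Dio3 (0.36 against 2.68, 2.67 and 1.83), Snhg14 (6.12 against 7.11, 7.53 and 7.81) and Usp29 (2.03 against 3.16, 3.30 and 3.84). The 7 genes whose values are given here were picked after those values were seen. Among the 11, Usp29 and Sgce are neighbours of Peg3 and Peg10, Magel2 lies between Ndn and Mkrn3, and Snhg14 overlaps Snrpn. Their low values are thus not independent of those of the 10 genes. F121 exceeded V6.5 by a median of 0.92 over these 16 genes and by 0.01 over 23 maternally expressed genes, for 9 of which V6.5 was lowest, near the share over all genes. Among the maternally expressed genes V6.5 was highest of the 4 for Grb10 (8.35 against 6.88, 5.99 and 6.21) and Phlda2 (4.22 against 1.49, 1.60 and 2.07) and lowest for H19 (5.11 against 7.03, 9.51 and 9.72). These are single libraries with no test.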
